A study of Mus musculus with 4 samples.

Results

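RXRα and RXRβ, encoded by Rxra and Rxrb, are nuclear receptors that bind DNA as homodimers or as partners of other nuclear receptors, and large peritoneal macrophages (LPMs) are the resident macrophages of the peritoneal cavity. Open chromatin far from any transcription start site (TSS) marks distal regulatory elements, among them enhancers, which are bound by factors such as PU.1, C/EBP and AP-1, and sites of CTCF, the zinc finger protein that anchors chromatin loops. ATAC-seq reads such sites with the Tn5 transposase, which cuts and tags accessible DNA. Described here are 3088 remote regions in which a peak was called in both libraries of RXR-deficient LPMs and in neither control library, out of 70744 regions in all. They were chosen by peak calls: peaks with 1 bp or more in common were joined across the 4 libraries, and a region was kept when its midpoint lay in an intron or in intergenic DNA, more than 50 kb from the nearest TSS of a RefSeq curated transcript on mm10 (GRCm38). Of all 12223 remote regions, 3088 (25.3%) met this rule. The calls, the fold enrichments and the pileups of these regions in the RXR-deficient libraries therefore describe them and were not tested.

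The libraries came from LPMs sorted from 9-week-old C57BL/6 mice, 40000 cells for each library. All mice carried floxed alleles of both Rxra and Rxrb. The controls were Rxrab fl/fl littermates without Cre (replicates 1 and 3), and the RXR-deficient mice were LysMCre+ Rxrab fl/fl (replicates 1 and 2), in which the LysM promoter drives Cre in myeloid cells and not in LPMs alone. No label states whether a library came from 1 mouse or from a pool, so p-values measure the spread between libraries. The study left out ATAC-seq samples that did not cluster with their group, which can narrow that spread.

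The lists held 38048 and 16097 peaks in the controls, against 65421 and 55581 in the RXR-deficient libraries. For 98.2 to 99.5% of the peaks, fold enrichment and p value could be solved for a pileup, the number of tags over the summit, and a local background. The lowest background of a library rises with its tags, and stood at 1.97 and 1.06 tags per 200 bp in the controls and at 1.33 and 1.08 in the RXR-deficient libraries. The control with the highest value thus had fewer peaks than either RXR-deficient library. Promoters of Adgre1, Icam2, Timd4 and Gata6, markers of LPMs, were called in all 4 libraries. That of Csf1r was called in none, and that of Itgam only in both RXR-deficient libraries. Of the promoters of 8 LPM and macrophage markers, 6 and 4 were called in the controls and 7 and 7 in the RXR-deficient libraries. Of 7 markers of small peritoneal macrophages (SPMs) and monocytes, 3 and 1 were called in the controls. In the RXR-deficient libraries 6 and 6 were. The part of this difference in the regions below was not tested. Among these markers, the Irf4 promoter was called in all 4 libraries and that of Ccr2 in none. Of all regions at a TSS, 8.91% were called only in both RXR-deficient libraries. No promoter of 5 B cell and 4 T cell markers was called in any library. Of 5 granulocyte and mast cell markers, the S100a8 promoter was called in control replicate 1 and in both RXR-deficient libraries, and no other. The Rxra and Rxrb promoters were called in all 4 libraries. These peaks lie outside the floxed exons, so they leave the deletion unchecked.

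The sequences around the strongest of these remote regions are shown first, to give the DNA behind the calls. Each is a stretch of mm10, 5′ to 3′, in lower case, centred on the summit or on the CTCF match. Capitals mark every match on either strand to 1 of 13 patterns of transcription factor motifs. The 6 regions with the highest mean log2 fold enrichment were the following.
Nearest to D430042O09Rik, chr7:125878147-125878247, plus strand: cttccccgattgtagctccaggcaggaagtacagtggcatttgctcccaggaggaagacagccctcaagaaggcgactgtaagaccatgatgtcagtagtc
Nearest to Tle3, chr9:61590111-61590211, plus strand: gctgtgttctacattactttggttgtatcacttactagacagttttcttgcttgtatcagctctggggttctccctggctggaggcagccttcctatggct
Intron of Mgat5, chr1:127425166-127425266, plus strand: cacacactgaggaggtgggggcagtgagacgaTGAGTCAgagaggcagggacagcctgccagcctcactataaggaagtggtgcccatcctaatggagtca
Nearest to Smim38, chr7:145149102-145149202, plus strand: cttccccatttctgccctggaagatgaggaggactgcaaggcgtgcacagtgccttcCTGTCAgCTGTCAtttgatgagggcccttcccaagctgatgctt
Intron of Ak8, nearest to Mir3088, chr2:28786302-28786402, plus strand: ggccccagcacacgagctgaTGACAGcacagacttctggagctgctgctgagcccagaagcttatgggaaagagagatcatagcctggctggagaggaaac
Nearest to Ahr, chr12:35480892-35480992, plus strand: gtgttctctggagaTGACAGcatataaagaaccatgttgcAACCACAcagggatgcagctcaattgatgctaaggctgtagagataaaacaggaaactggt
The capitals are an AP-1 match in the Mgat5 region, MEIS matches in the Smim38, Ak8 and Ahr regions and a RUNX match in the Ahr region. The stretches near D430042O09Rik and Tle3 held no match to any of the 13 patterns.

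The 4 strongest regions with a match to the CTCF pattern are shown in the direction of that match, with the CTCF match alone in capitals.
Intron of Egflam, nearest to Lifr, chr15:7263975-7264075, minus strand: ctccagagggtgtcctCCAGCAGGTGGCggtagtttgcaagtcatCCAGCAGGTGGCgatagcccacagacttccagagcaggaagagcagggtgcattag
Nearest to Gm20759, chr11:85972508-85972608, minus strand: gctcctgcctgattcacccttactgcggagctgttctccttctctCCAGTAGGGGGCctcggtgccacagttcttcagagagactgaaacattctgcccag
Nearest to Etv6, chr6:133960836-133960936, plus strand: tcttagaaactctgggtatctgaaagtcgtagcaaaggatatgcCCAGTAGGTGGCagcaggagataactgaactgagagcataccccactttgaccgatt
Intron of Sfxn5, nearest to Emx1, chr6:85239077-85239177, minus strand: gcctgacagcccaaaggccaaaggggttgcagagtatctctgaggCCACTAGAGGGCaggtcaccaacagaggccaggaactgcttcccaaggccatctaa
The Egflam region held 2 copies of the match in the same direction, and the other regions 1 copy. The strongest regions near a transcription factor of the macrophage or nuclear receptor lists, beside the Etv6 region, were those of Runx2, Bach2 and Bach1.
Intron of Runx2, chr17:44614139-44614239, plus strand: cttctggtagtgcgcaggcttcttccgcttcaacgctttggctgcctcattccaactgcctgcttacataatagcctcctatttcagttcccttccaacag
Nearest to Bach2, chr4:32343383-32343483, plus strand: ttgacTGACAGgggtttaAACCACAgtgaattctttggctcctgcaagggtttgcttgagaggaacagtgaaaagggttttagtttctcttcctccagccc
Nearest to Bach1, chr16:87796932-87797032, plus strand: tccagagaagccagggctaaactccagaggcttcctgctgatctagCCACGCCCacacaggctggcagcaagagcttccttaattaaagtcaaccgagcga
Capitals are RUNX and MEIS matches at Bach2 and a KLF match at Bach1. The region with the highest pileup, chosen after its value was seen, lies in an intron of Tns1.
Intron of Tns1, chr1:73951385-73951485, plus strand: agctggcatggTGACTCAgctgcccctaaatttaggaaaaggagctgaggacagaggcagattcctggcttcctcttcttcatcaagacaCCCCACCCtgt
Its capitals are an AP-1 and a KLF match.

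The calls of remote regions were uneven between the genotypes. The 3088 regions called only in both RXR-deficient libraries were 25.3% of the 12223 remote regions (95% Wilson interval 24.5 to 26). Called only in both control libraries were 6 remote regions, and 32 of all 70744 regions. Such a call needs a peak in control replicate 3, which had 1532 remote peaks. Over all 70744 regions, 22.8% were called only in both RXR-deficient libraries. That share was 26% of intronic and intergenic regions within 50 kb of a TSS, 26.3% of exonic regions and 8.91% of regions at a TSS (1 kb before to 200 bp after it). The remote share was therefore near that of the nearer intronic and intergenic regions, and only promoters stood well below. A further 3060 remote regions were called in both RXR-deficient libraries and in control replicate 1, and 1427 in all 4 libraries.

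**Figure D1:**
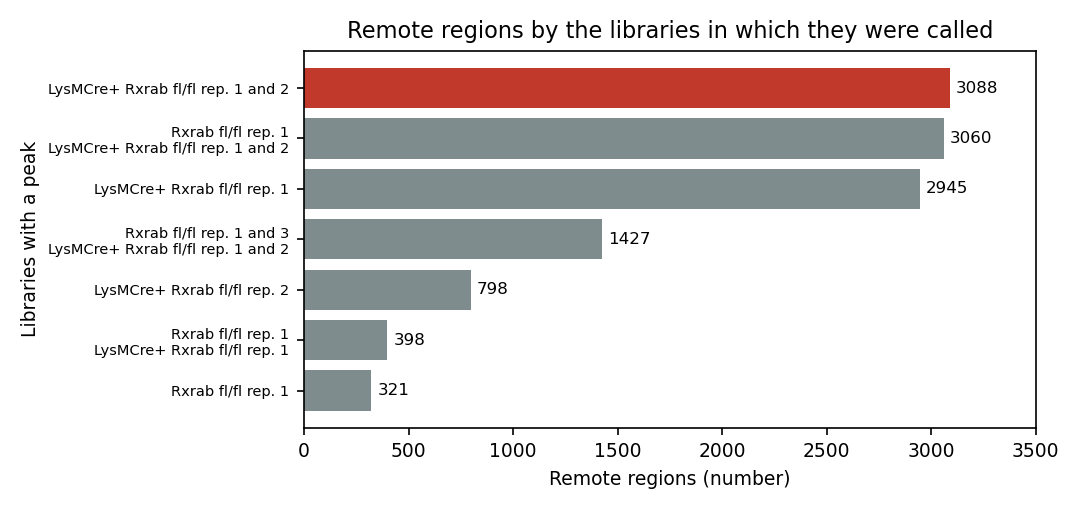
Number of remote regions (horizontal axis) for each of the 7 most frequent sets of libraries in which they were called (vertical axis). The regions described here are the red bar (3088), next to 3060 that were also called in control replicate 1 and 1427 called in all 4 libraries.

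The number of peaks in a library sets how many regions can be called in it. Control replicate 3, with the fewest peaks, decided little, since without it 3091 regions met the rule. Without control replicate 1, 6151 regions did. Without RXR-deficient replicates 1 and 2 in turn, 3942 and 6131 did. When the 16097 peaks of lowest q value were taken from each library, 271 regions met the rule. Of the 3088 regions, 25 (0.810%) had a peak among the 16097 of lowest q value in both RXR-deficient libraries, so nearly all were called below the level at which the libraries hold equal numbers of peaks.

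In height, the regions were lower than the remote regions called in all 4 libraries. The fold enrichment at the summit, the ratio of the pileup to the local background, had a median of 7.31 in RXR-deficient replicate 1 (5th to 95th percentile 4.30 to 14.1) and of 6.19 in replicate 2 (4.05 to 10.4). These medians stood at percentiles 43.2 and 37.7 of all peaks of the library. The median pileup was 19 tags in replicate 1 and 14 in replicate 2. In the remote regions called in all 4 libraries, the median fold enrichment was 15.0 and 12.1 in the same libraries and the median pileup 69.0 and 49.0. Those regions had a median pileup of 69.5 in control replicate 1 and of 16 in replicate 3. Where all libraries had a peak, the pileup of control replicate 1, not scaled for depth, was thus close to that of RXR-deficient replicate 1. Their lowest backgrounds differed, at 1.97 and 1.33 tags per 200 bp. Median fold enrichment in these regions was 13.6 in control replicate 1 and 6.67 in replicate 3. At the lowest background, the smallest pileup called as a peak was 8 tags in control replicate 1 and 6 in each of the other libraries. A control without a peak has no value in these lists, so no fold change between genotypes can be given for the 3088 regions.

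Nearly all peaks also passed a stricter threshold. The lowest −log10 q in either library was 1.86, and 3087 of the 3088 regions exceeded 2 (a q value of 0.01) in both. The fold enrichments of the 2 RXR-deficient libraries went together across the regions (Pearson r of log2 values 0.600, Spearman rho 0.549, n = 3088 regions), less than in the 1427 remote regions called in all 4 libraries (0.865 and 0.860). These correlations are across regions, which share both libraries and are not replicates. Replicate 1 had the higher value in 72.1% of the regions. The summits of both libraries lay a median of 30.0 bp apart, and 66.8% lay within 50 bp.

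**Figure D2:**
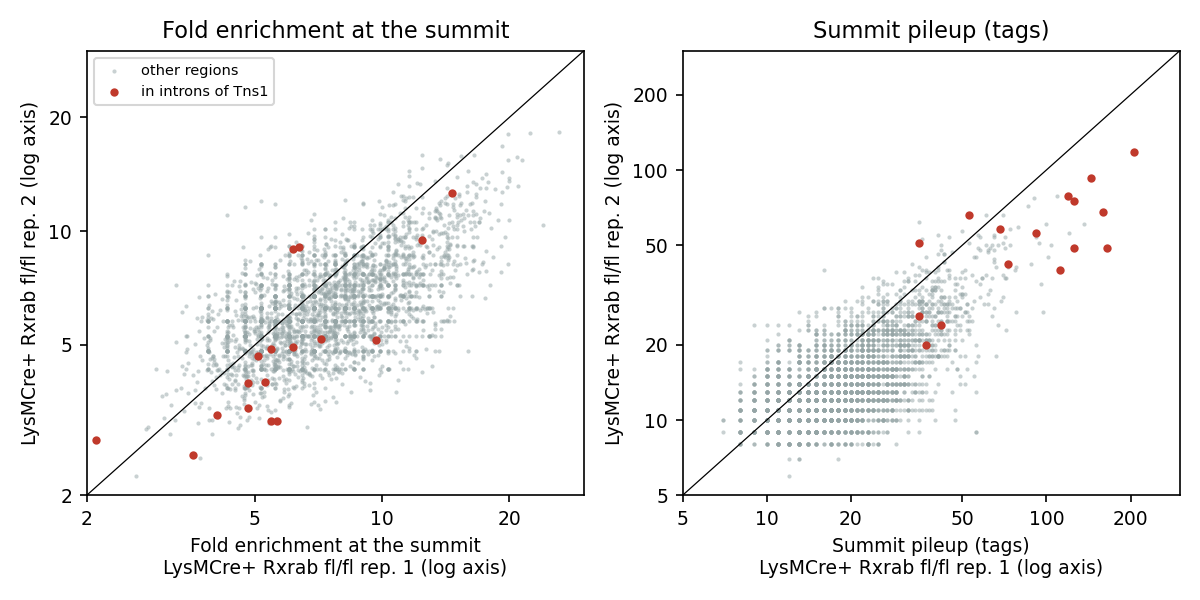
Each point is 1 of the 3088 regions, with its value in RXR-deficient replicate 1 (horizontal) and replicate 2 (vertical), as fold enrichment (left) and as summit pileup in tags (right), on log axes with the line of equality. Regions in introns of Tns1 (red) are spread over the range of fold enrichment and include the highest pileup of replicate 1, 206 tags. Regions without a solved pileup in either library are absent from the right panel.

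The region with the highest fold enrichment (chr7:125877981-125878409) was intergenic, 170 kb downstream of the TSS of D430042O09Rik. It had a fold enrichment of 26.2 in replicate 1 and 18.3 in replicate 2, on pileups of 136 and 61.0 tags. The nearest control peak was 121 kb away. It lay 12.9 kb from a TSS of the GENCODE annotation of the same gene, so its remoteness rests on the RefSeq set.

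The region nearest to Tle3, a co-repressor of the Groucho family, was also intergenic (chr9:61589917-61590491), 218 kb downstream of the TSS. Its fold enrichment was 22.4 and 18.2. In an intron of Mgat5, which encodes an enzyme of N-glycan branching, the region 220 kb downstream of the TSS had 19.8 and 18.1, and the nearest control peak was 154 kb away. The regions near Smim38 (58.9 kb downstream) and in an intron of Ak8 (53.1 kb downstream of Mir3088) had 21.4 and 15.4, and 20.8 and 15.7. The region near Ahr, the ligand-activated receptor for aryl hydrocarbons, lay 54.0 kb downstream of the TSS (chr12:35480765-35481168) and had 19.2 and 16.8. All 6 were higher in replicate 1, and each stood above the 95th percentile of the regions in both libraries. The remoteness of these other regions also rests on the RefSeq curated set. A TSS of RefSeq model transcripts lay 5.11 kb from the Tle3 region and 5.92 kb from the Mgat5 region. GENCODE TSSs lay 13.8, 7.17 and 39.8 kb from the Smim38, Ak8 and Ahr regions.

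The pileup singled out another locus. Tns1 (chromosome 1, 73910232 to 74124548, minus strand) encodes tensin, a protein of focal adhesions that binds actin. Its introns held 17 of the 3088 regions, more than those of any other gene, out of 28 remote regions there. They spanned 150 kb, from 73923200 to 74073044. Over these regions the pileup ran from 35.0 to 206 tags in replicate 1 (median 102, 16 regions solved) and from 20 to 244 in replicate 2 (median 56.0). Of them, 10 in replicate 1 and 9 in replicate 2 were above the 99th percentile of the 3088 regions (72.0 and 51.0 tags). The highest was the region shown above (chr1:73951145-73951820), with 244 tags in replicate 2, a −log10 q of 423 and 174, and a fold enrichment of 14.6 and 12.6. A GENCODE TSS of Tns1 lay 10.5 kb from it.

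At the same time the local background in Tns1 was high. Its median over the 17 regions was 15.7 tags in replicate 1 and 14.6 in replicate 2, against 1.44 and 1.24 over all 3088 regions. The median fold enrichment was 5.47 and 4.67, below the medians of 7.31 and 6.19. Of 37 regions in the Tns1 gene body, 6 were called in control replicate 1 and 1 in replicate 3. At the intronic region called in all 4 libraries (chr1:73998110-73999466), the pileup was 34.0 and 9.00 tags in the controls. In RXR-deficient LPMs it was 228 and 135 tags. That region was not used by the rule. Scaled to the median of each library, its pileup was higher in RXR-deficient LPMs by 2.48 on the log2 scale (standard error 0.24, adjusted p = 0.0119 from limma), and with each library left out in turn by 2.33 to 2.63. Its fold enrichment differed by 0.00 (standard error 0.21, adjusted p = 0.998 from limma). The pileup and the ratio to the local background thus gave different answers at this locus, which was chosen after its values had been seen.

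**Figure D3:**
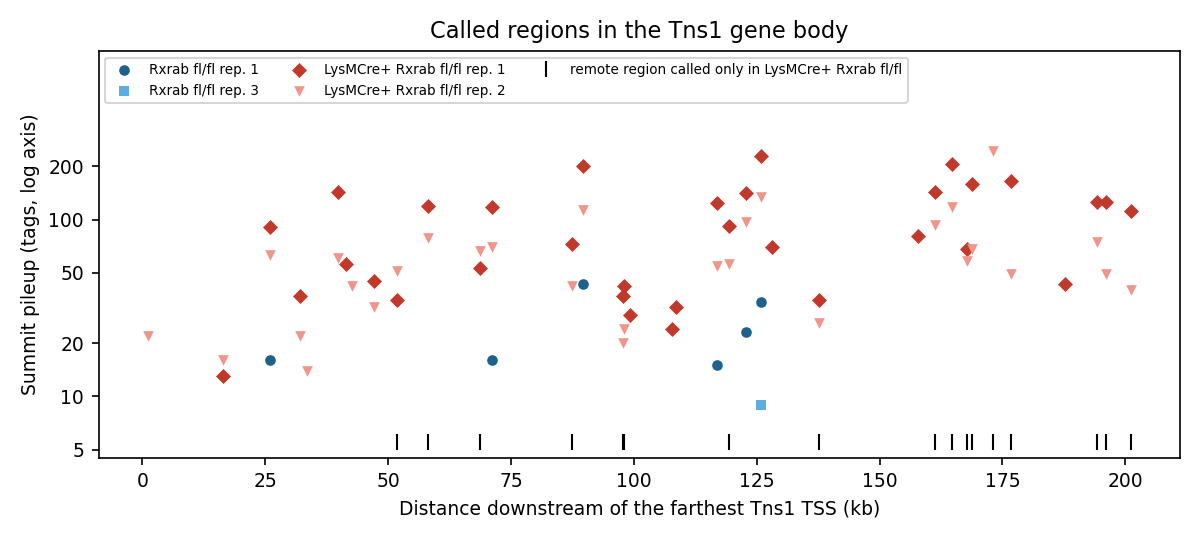
Summit pileup in tags (vertical, log axis) of every region called in the Tns1 gene body against its distance downstream of the farthest annotated TSS (horizontal, kb), by library. The black ticks are the 17 remote regions called only in RXR-deficient LPMs, where the red symbols stand between 20 and 244 tags and no control symbol is present, while the 6 regions with a control peak have lower control than RXR-deficient pileups. Regions whose pileup was not solved lack that symbol.

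The 3088 regions were spread over 1751 nearest genes, of which 1060 had 1 region and 83 had 5 or more. Maf, a bZIP transcription factor of macrophages, was nearest to most, 12 of its 44 remote regions. They lay 109 to 596 kb downstream of its TSS, with fold enrichments of 4.57 to 11.0 in replicate 1 and 3.01 to 9.89 in replicate 2. Its highest mean was at chr8:115110389-115110799, with 11.0 and 9.62. Of the 12, 5 lay in introns of Wwox. Another 4 remote regions of Maf were called in all 4 libraries. The region closest to a control peak, chr8:115423691-115423978, lay 0.259 kb from it.

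6030407O03Rik followed with 10 of 12 remote regions, all of them the Tns1 intronic regions described above. Next came 5930403N24Rik with 9 of 19, Hdac9, a class IIa histone deacetylase, with 9 of 21, Lhfpl2 with 9 of 20 and Mir21c with 9 of 19. Elmo1, an adaptor in the engulfment of dying cells, had 8 of 23, Ext1, an enzyme of heparan sulfate synthesis, 8 of 20, the zinc finger factor Klf4 8 of 43 and Med13l, a subunit of the Mediator complex, 8 of 29. Klf4 had 7 remote regions called in all 4 libraries, the most of these 10 genes.

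By host gene, 800 genes held a region in an intron. After Tns1 with 17 came Hdac9 with 12 of 27 remote intronic regions, Wwox, an oxidoreductase, with 12 of 25, Arid1b, a subunit of the BAF chromatin remodelling complex, with 11 of 40, and the SNARE gene Vti1a with 8 of 14. Prkcb, the beta isoform of protein kinase C, had 7 of 14, Ext1 7 of 16, Med13l 7 of 17, Ttc7b 7 of 13 and the non-coding A930011G23Rik 7 of 24. The strongest of those assigned to Wwox (chr8:114609372-114609733) reached a fold enrichment of 18.8 and 10.7, on 53.0 and 25.0 tags. All these genes are over 200 kb long. The host was also the nearest gene for 929 of 1554 intronic regions (59.8%), so a host and a nearest gene often differ.

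The myeloid transcription factor list, 30 genes that shape macrophages and their relatives, had 65 regions near 18 genes, out of 254 remote regions (25.6%, against 25.3% over all genes). Their median fold enrichment was 7.49 and 5.78, against 7.31 and 6.19 over all 3088 regions. After Maf and Klf4, Runx1, a factor of blood cell formation, had 7 of 17, at 52.3 to 258 kb. Irf8, a regulator of monocyte and dendritic cell development, had 5 of 12, with 0 called in all 4 libraries. Its strongest region (chr8:120812049-120812548), 73.7 kb downstream of the TSS, had 65.0 and 54.0 tags and a fold enrichment of 9.02 and 8.51. These pileups were above the 95th percentile of the 3088 regions, which was 45 tags in replicate 1 and 32 in replicate 2.

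The Runx2 region, in an intron 122 kb downstream of its TSS, had a fold enrichment of 15.9 and 13.2. The region near Etv6, an ETS family repressor, lay 74.8 kb upstream and had 14.6 and 9.62. Near Bach2, a bZIP repressor of lymphocytes, the strongest of 4 regions lay 73.9 kb upstream and was the higher in replicate 2, with 11.1 and 12.4. Near Bach1, the haem-sensing relative of Bach2, the strongest of 3 regions had 12.4 and 9.62. The Bach2 region was 8.18 kb and the Bach1 region 11.9 kb from the nearest control peak.

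The LPM identity list had 4 of 36 remote regions (11.1%) chosen by the rule, against 25.3% over all genes. Another 7 of 36 (19.4%) were called in all 4 libraries, against 11.7% over all genes. The 4 were single regions near Adgre1, which encodes F4/80, near Arg1, near Ccnd1 and near Cyp26a1, a retinoic acid hydroxylase. Their median fold enrichment was 6.02 and 6.60. The Adgre1 region, in an intron 51.2 kb downstream of the TSS, had 8.40 and 5.21. The SPM and monocyte list had 0 of its 5 remote regions among the 3088. With 36 and 5 remote regions, these shares rest on few regions.

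The nuclear receptor list, 31 genes of the family that includes the RXR partners, had 10 of 46 remote regions (21.7%). Over all genes the share was 25.3%. The 10 lay near 3 genes, with a median fold enrichment of 6.41 and 5.60. Nr3c1, the glucocorticoid receptor, had 5 of 19, and Thrb, a thyroid hormone receptor, had 4 of 12. The remaining region belonged to Rxra, the deleted gene. It lay in intergenic DNA just past the end of the gene (chr2:27763456-27763747, with the gene ending at 27763319), 53.0 kb downstream of the nearest TSS. It had 86.0 and 72.0 tags, above the 99th percentile of the regions in both libraries, on a high background, with a fold enrichment of 4.32 and 3.53. Of the regions in the Rxra gene body, 9 and 5 were called in the controls and 16 and 15 in RXR-deficient LPMs. The whole lists held 38048 and 16097 peaks in the controls, against 65421 and 55581 in the RXR-deficient libraries.

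Genes of other cell types were also nearest to some regions. The lymphocyte and granulocyte list had 18 of 49 remote regions (36.7%, against 25.3% over all genes), with a median of 7.06 and 6.01. These were near Foxo1 (5 of 9), a factor also used in myeloid cells, Foxp1 (4 of 14), Themis (4 of 9), Lef1 (3 of 6), Gata3 and Tox (1 each). The strongest near Themis, a gene of thymocyte selection, lay in an intron of Ptprk and had a fold enrichment of 15.0 and 9.62. No promoter of the B and T cell markers was called in any library, while that of the granulocyte marker S100a8 was called in 3 of 4. The part of such cells in these regions was not tested. The long neuronal list had 12 of 41 remote regions (29.3%, against 25.3% over all genes), with a median of 8.17 and 6.71. Auts2 was the nearest gene to 5 of its 7, with values up to 16.7 and 12.3, and Cntnap2 had 3 of 7. Neither list was tested against the other genes.

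On the chromosomes, the share of remote regions chosen by the rule ran from 20.9% on chromosome 4 to 28.4% on chromosome 17, and the density from 0.811 regions per Mb on chromosome 4 to 1.98 on chromosome 13. Of windows of 1 Mb, that at chr15:59000001-60000000 held most, 17 of 53 remote regions, near Nsmce2, Mtss1 and 4933412E24Rik. The window at chr17:5000001-6000000 held 16 of 55, near Ldhal6b, Arid1b and Zdhhc14. Those at chr10:8000001-9000000, near Sash1, Ust and Tab2, and at chr15:67000001-68000000, near 1700012I11Rik, St3gal1 and Zfat, held 15 of 46 and 15 of 39. The window of Maf, chr8:115000001-116000000, held 14 of 50, and that at chr16:30000001-31000000, near Fam43a and Xxylt1, tied with it at 14 of 58. Most remote regions of each of these windows had another call pattern.

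In position, 1554 regions were intronic and 1534 intergenic (49.7%, 95% Wilson interval 47.9 to 51.4). The intergenic share was 55.0% (52.4 to 57.6) in remote regions called in all 4 libraries, 51.6% in all remote regions and 43.2% in the nearer regions called only in RXR-deficient LPMs. The median distance to the nearest TSS was 84.5 kb (quartiles 63.8 and 123, largest 1160). Of the regions, 62.9% lay at 50 to 100 kb, 27.3% at 100 to 200 kb, 8.97% at 200 to 500 kb and 0.777% beyond. More lay downstream of the nearest TSS (63.5%) than upstream.

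Just inside the limit of 50 kb, the 3 closest regions lay 50.02, 50.03 and 50.04 kb from a TSS, near Mir5122, A730082K24Rik and Shtn1, with fold enrichments of 3.87 to 4.30 in replicate 1. Just outside, those near Cd47, Nek10 and Tor3a lay at 49.96, 49.94 and 49.94 kb and had 7.46 to 11.0. Over the whole sets the order was the other way. The median fold enrichment was 7.31 and 6.19 in the 3088 regions. In the 10938 nearer regions called only in RXR-deficient LPMs it was 6.84 and 5.78. Remoteness depended on the annotation. With model transcripts of RefSeq counted, 1347 of the 3088 regions (43.6%) stayed over 50 kb from every TSS, and with GENCODE transcripts 783 (25.4%). Within 1 kb of a GENCODE TSS lay 152 regions, 67 of them at a protein-coding gene and 36 at a lincRNA.

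Control peaks were often near. The nearest control peak was a median of 18.5 kb away, within 10 kb for 1085 regions (35.1%) and within 1 kb for 177 (5.73%), with a smallest gap of 3 bp. A region called in all 4 libraries lay within 10 kb of 327 regions (10.6%). RefSeq functional elements overlapped 17 regions, most of them enhancers with activity in named tissues, such as a heart element near Wdsub1 and a branchial arch element near Mitf. The region 86.0 kb upstream of Runx3 overlapped an element annotated to regulate Runx3.

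In sequence, the regions were narrower than the remote regions called in all 4 libraries. Their median width was 360 bp, against 554 bp. The median GC content within 100 bp of the summit was 48.8%, against 49.8%. Of the bases in that window, 11.4% were repeat-masked, against 8.29%. Regions called in both RXR-deficient libraries and control replicate 1 lay between, at 440 bp, 49.3% and 9.84%. No test was run on these shares, since regions of 1 library are not replicates.

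The 13 patterns were searched on both strands within 100 bp of the highest summit, and a base may belong to more than 1 pattern. CTCF was one, and DR1 and DR5, spacings of nuclear receptor half-sites bound by RXR dimers, were others. The factors of myeloid cells were searched as GAGGAAGT for PU.1, as TGTGGTT for RUNX and as TTGCNNAA for C/EBP. AP-1 was searched as TGANTCA and the related ATF site as TGACGTNA. The remaining zinc finger and homeobox patterns were AGATAAG for GATA, CCNCNCCC for KLF and CTGTCA for MEIS. Interferon regulatory factors were searched as the ISRE pattern GAAANNGAA, and the E-box as TCACGTG. A match describes the letters and does not show that a factor was bound. Of the 3088 regions, 2073 (67.1%) held at least 1 pattern.

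AP-1 matches were in 11.7% of the regions (95% Wilson interval 10.6 to 12.8), against 23.0% (20.9 to 25.2) of the remote regions called in all 4 libraries and 12.7% of all regions. C/EBP matches were in 11.7% (10.6 to 12.8), against 18.4% (16.5 to 20.5) and 11.1%. GATA matches, the site type of the LPM factor GATA6, were in 1.55% (1.17 to 2.05), against 4.06% (3.16 to 5.22) and 2.09%. In regions called in both RXR-deficient libraries and control replicate 1, these shares were 19.1, 17.2 and 3.20%. All 3 patterns were thus rarer in the chosen regions than in either set of remote regions with a control peak. Their Wilson intervals, which cover counting error only, did not overlap. The E-box pattern met the same description. It was in 1.04% (0.735 to 1.46), against 3.22% (2.43 to 4.27) and, with control replicate 1 sharing the call, 1.90% (1.47 to 2.44).

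Matches of PU.1, the ETS factor of myeloid cells, were in 11.9% of the regions, against 13.7% of remote regions called in all 4 libraries and 9.30% of all regions. The intervals of the first 2 of these shares overlapped. RUNX matches were in 6.15, 8.76 and 5.88% of the same sets, KLF in 19.4, 26.3 and 31.0%, MEIS in 18.3, 21.2 and 16.6%, ISRE in 9.23, 8.97 and 7.14%, E-box in 1.04, 3.22 and 2.44% and ATF in 0.939, 1.82 and 1.67%. DR1 and DR5 matches were in 1 region each (0.0324%), against 3 and 7 of 1427 (0.210 and 0.491%) and 0.164 and 0.151% of all regions.

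**Figure D4:**
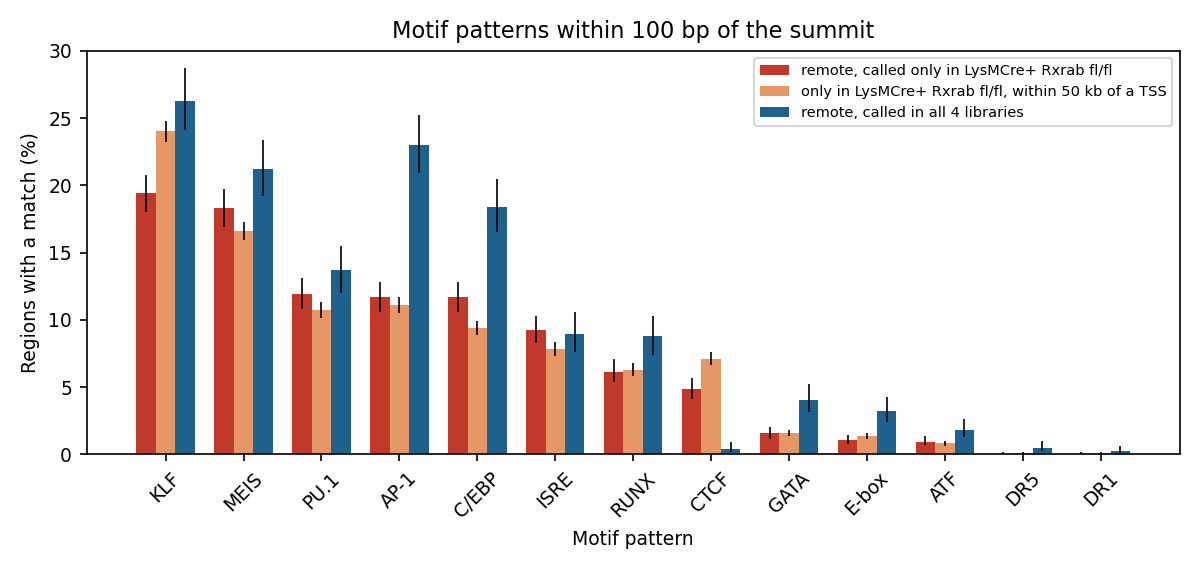
Share of regions (vertical, %) with a match to each of 13 motif patterns (horizontal) within 100 bp of the summit, for the 3088 remote and the 10938 nearer regions called only in RXR-deficient LPMs and the 1427 remote regions called in all 4 libraries. Error bars are 95% Wilson intervals, which cover counting error only. CTCF is higher in both sets called only in RXR-deficient LPMs (4.83 and 7.12%, against 0.420%). The other patterns, ISRE apart, are lower in both.

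CTCF went the other way. Its pattern was in 149 regions, 4.83% (95% Wilson interval 4.12 to 5.64), against 6 of the 1427 remote regions called in all 4 libraries (0.420%, 0.193 to 0.914). It was in 2.84% (2.31 to 3.49) of the 3060 that control replicate 1 shared, in 3.36% of all remote regions and in 3.90% of all regions. The nearer regions called only in RXR-deficient LPMs held it more often still, in 7.12% (6.65 to 7.62). The pattern was thus not confined to remote regions. With equal numbers of peaks from each library, 1.85% of the 271 remote regions then called only in RXR-deficient LPMs held it.

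The CTCF match lay close to the summit. Its centre was a median of 18.5 bp from it in the 149 regions, and within 25 bp in 99 (66.4%). In the 6 regions called in all 4 libraries the median was 49.0 bp. The nearer regions called only in RXR-deficient LPMs also had a median of 18.5 bp, with 503 of 779 (64.6%) within 25 bp. This position was thus not particular to remote regions. The match was on the plus strand in 73 regions. Only 9 of 149 (6.04%) lay in repeat-masked DNA. The median fold enrichment of the 149 was 7.19 and 6.25, close to the 7.31 and 6.16 of the other regions. The strongest, in an intron of Egflam 123 kb from the TSS of the cytokine receptor gene Lifr, had 17.8 and 13.5, and the double match shown above. A GENCODE TSS of Egflam lay 9.24 kb from it. That near Gm20759 had 15.0 and 10.1, and that in Sfxn5, near the homeobox gene Emx1, 12.4 and 11.2.

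**Figure D5:**
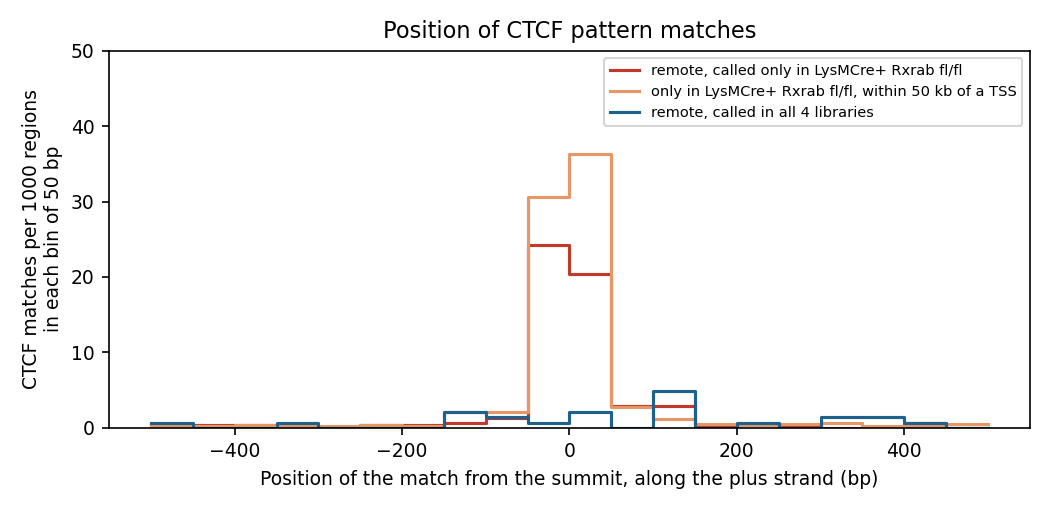
Matches to the CTCF pattern per 1000 regions (vertical) in bins of 50 bp by their position from the summit (horizontal, bp), for the same 3 sets. The remote regions called only in RXR-deficient LPMs reach 24.3 and 20.4 matches per 1000 in the bins next to the summit. The nearer regions called only in RXR-deficient LPMs reach 30.6 and 36.3 there. The remote regions called in all 4 libraries stay at or under 4.91 in every bin.

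Over the libraries, the share of all remote peaks with the CTCF pattern was 1.66% (95% Wilson interval 1.35 to 2.03) and 0.392% (0.180 to 0.852) in control replicates 1 and 3, and 3.53% (3.21 to 3.89) and 3.03% (2.69 to 3.42) in RXR-deficient replicates 1 and 2. Both RXR-deficient libraries stood above both controls. The difference of the means was 2.26 percentage points (exact two-sided permutation test, p = 0.333, n = 2 libraries each, the smallest p this design allows). The share followed the number of remote peaks, which was 5438, 1532, 11090 and 8570. With an equal number of remote peaks of lowest q value from each library, the shares were 0.522 and 0.392% against 0.849 and 1.24%, a difference of 0.587 points. Without control replicate 3 the difference was 1.63 points.

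The 1427 remote regions called in all 4 libraries, which the rule did not use, allowed a test of the genotypes. Log2 fold enrichment was centred on the median of each library and tested with limma over all 15199 regions called in all 4 libraries. Of the remote regions, 2 (0.140%) were higher in RXR-deficient LPMs and 0 lower (limma, p adjusted by Benjamini-Hochberg below 0.05, change of more than 1), against 6 (0.0395%) and 7 (0.0461%) of all regions. At an unadjusted p under 0.05, 200 of the 1427 were higher and 96 lower, against 1348 and 1997 of all 15199. Without control replicate 1, 34 remote regions were higher and 19 lower, against 244 and 540 of all regions. Without control replicate 3, 16 and 5 were, against 96 and 40 of all. Without RXR-deficient replicate 1, 1 was higher and 0 lower, against 3 and 10 of all. With the pileup in place of fold enrichment, limma called 39 of 1365 remote regions higher and 109 lower, against 395 and 684 of all 14179 regions with a pileup in each library. The number of calls and their balance thus depended on the measure, in the remote regions as in all. The median log2 fold change of the remote regions was 0.06, against −0.09 over all regions, and 55.6% were positive, against 41.0%. On the pileup the remote median was −0.10, against −0.08 over all regions.

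Both regions called were intergenic. That 79.2 kb from the TSS of Ndrg1, a stress-induced gene (chr15:67048452-67049159), had fold enrichments of 8.42 and 4.37 in the controls and of 22.6 and 18.5 in RXR-deficient LPMs. It differed by 1.38 on the log2 scale (standard error 0.20, adjusted p = 0.0390 from limma) and lies in one of the windows densest in the chosen regions. That 126 kb from the TSS of Dnajb6, a co-chaperone (chr5:29861510-29861910), had 7.07 and 3.88 against 21.2 and 13.3, a difference of 1.31 (standard error 0.22, adjusted p = 0.0449 from limma). Both were picked by this test, so the separation of their libraries by genotype is no further support. Neither has a result on the pileup, since that fit took only regions with a pileup solved in each library. Without RXR-deficient replicate 1, the adjusted p was 0.0682 at Ndrg1 and 0.162 at Dnajb6, and without replicate 2, 0.0570 at Ndrg1 and 0.0327 at Dnajb6.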

How the data were processed

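ATAC-seq was compared in 4 libraries of sorted LPMs. According to the methods and the submitters' processing notes, the authors trimmed reads with cutadapt 1.7, aligned them to mm10 with Bowtie2, kept mapping qualities over 30, removed duplicates and mitochondrial and sex chromosome reads, called peaks per library with MACS2 2.1.1 (extension 200 bp, q value 0.05) and removed blacklisted peaks. The deposited peak lists give the fold enrichment at the summit, a ratio to the local background, and −log10 values of p and q. The deposited integer score was not used. Read counts were not analysed here, so the authors' count test was not repeated.

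Regions were placed on 43783 RefSeq curated transcripts of GRCm38. Pileups were solved with the pseudocount of 1 of MACS2, within 0.01 of the −log10 p value. limma 3.58.1 (lmFit, eBayes) in R 4.3.3 stood in for the authors' fit. Adjusted p-values are Benjamini-Hochberg over 15199 regions for fold enrichment and over 14179 for the pileup. Scripts (Python 3.11.15, pandas 2.3.3, pysam 0.24.0, scipy 1.17.1, numpy 2.4.6) were tested on simulated data. Wilson intervals cover counting error only. The lowest background of 1.06 to 1.97 tags per 200 bp stands for depth.

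The regions, gene lists, markers and motifs were chosen with earlier results of these data known. Named were the 6 regions of highest mean log2 fold enrichment, the 4 highest with a CTCF match and the 4 highest near genes of the macrophage and nuclear receptor lists, the 10 nearest and 10 host genes with most regions, the 3 leading genes of each list, and the 5 densest windows, with 1 tied for the last place. The Tns1, Irf8, Rxra, Ndrg1 and Dnajb6 regions, and others outside that rule, were named after their values were seen. Alternatives changed the q value, number of peaks, merging, distance, TSS set, motif window, libraries and, for limma, measure, scaling, filter and threshold. The pileup of the Tns1 region with each library left out was added after seeing the data.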

Additional observations from a re-analysis of the deposited data

How the results depend on the processing

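No paired analysis was possible because the groups share 1 replicate number. The number of remote regions called only in RXR-deficient LPMs (3088) was 271 with equal numbers of peaks, 1145 at 100 kb, 1327 with model transcripts and 3091 to 6151 with 1 library left out. Each of these alternatives changes by construction which peaks or distances count. In the same order, the intergenic share (49.7%) was 43.9, 55.3 and 45.4%, and the median GC content (48.8%) was 52.2, 47.8 and 48.3%, 47.6% over whole regions and 48.3 to 48.8% with 1 library left out. The CTCF share (4.83%) was 1.85% with equal numbers of peaks, 3.84% at 100 kb and 3.85 to 4.82% with 1 library left out. The masked share (11.4%) was 8.63% with equal numbers of peaks, 12.7% over whole regions and 10.6 to 12.1% with 1 library left out. In the remote regions called in all 4 libraries, limma called 39 higher and 109 lower on the pileup, 4 higher with quantile normalization, 0 without centring, 6 higher and 1 lower with 1 added to fold enrichment, 8 and 2 with a filter at 5, 11 and 4 with a mean-variance trend, and 1 to 34 higher and 0 to 19 lower with 1 library left out. Their median (0.06) turned to −0.10 on the pileup and was 0.11 with quantile normalization and 0.42 without centring. The cause was not tested. A control without a peak has no value here, so a weak signal in it cannot be told apart from none.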
